A study of Mus musculus with 8 samples.

Results

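Oligodendrocyte and myelin genes were examined in ribosome-bound RNA of dopaminergic neurons from the midbrain of C57BL/6 mice: 37 genes chosen by name, all of which were found among the 21761 genes of the deposited count table. There were 4 libraries from mice that received MPTP-HCl at 30 mg/kg of free base, once a day into the peritoneum for 5 days, and 4 libraries from mice that received saline. In both groups tissue was taken 4 days after the last injection. MPTP is a toxin whose metabolite enters dopaminergic neurons through the dopamine transporter and blocks mitochondrial respiration. Translating ribosome affinity purification (TRAP) captures RNA bound to tagged ribosomes of a chosen cell type. The deposited counts are named for dopaminergic neurons of the SN (substantia nigra), but the sample labels did not state which midbrain region a library held. The promoter that drove the tag, and whether a library came from a single animal or a pool, were not stated. The p-values therefore measure only the spread between these libraries, which may be technical.

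Oligodendrocytes wrap axons of the central nervous system in myelin, a stack of membrane built from a few very abundant proteins and from galactolipids. The factors Olig1, Olig2 and Sox10 set the lineage, and Myrf switches on the myelin genes in the maturing cell. Dopaminergic neurons are not known to make myelin. Several of the 37 genes are not restricted to oligodendrocytes: Gsn, Car2, Cryab, Enpp2, Gpr37, Apod and Trf are known from other brain cells too. In RNA purified from tissue, the number of cells of a type, the RNA per cell and the carryover of RNA from other cells cannot be told apart.

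Promoters of 3 genes are shown because each one holds a match to the letters bound by Myrf within the stretch before the gene. They are from RefSeq on GRCm38.p6, written 5′ to 3′ on the strand of the gene and cut before the first annotated exon base. Capitals mark CTGGCAC or CTGGTAC (the Myrf motif) and ACAAAG or ACAATG (a Sox motif), on either strand.
Mog (chr17:37023399-37023648, minus strand): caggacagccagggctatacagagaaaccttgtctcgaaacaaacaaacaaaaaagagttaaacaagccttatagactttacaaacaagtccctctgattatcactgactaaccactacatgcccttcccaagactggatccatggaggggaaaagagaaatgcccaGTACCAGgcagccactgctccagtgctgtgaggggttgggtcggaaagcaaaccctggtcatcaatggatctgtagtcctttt
Cnp (chr11:100574689-100574903, plus strand): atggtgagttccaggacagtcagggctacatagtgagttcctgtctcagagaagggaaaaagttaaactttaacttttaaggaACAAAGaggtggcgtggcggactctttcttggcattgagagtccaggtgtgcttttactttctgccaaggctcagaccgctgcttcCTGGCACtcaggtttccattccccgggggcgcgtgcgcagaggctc
Hapln2 (chr3:88027584-88027761, minus strand): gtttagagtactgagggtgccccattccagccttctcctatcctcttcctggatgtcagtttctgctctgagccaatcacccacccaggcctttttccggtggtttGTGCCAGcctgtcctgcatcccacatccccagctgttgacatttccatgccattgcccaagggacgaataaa
RefSeq windows were found for 25 of the 37 genes. In the 250 bases before the first listed start, the Myrf letters occurred in 4 of these 25 (16.0%: Cnp, Hapln2, Mag and Mog), against 5.86% of 27025 promoters in the mouse genome. The Sox letters occurred in 10 of the 25 (40.0%), against 25.5% of all promoters. The windows counted here were not cut at the first exon base and can hold exon bases. Hapln2 is among the 10, but its Sox match is not within the bases printed above. A match describes the letters and is not evidence of binding.

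Libraries held 66450856 to 78892061 counts in the MPTP group and 54192354 to 69333470 counts in the saline group. The labelled cell type was checked by its markers: Th, which catalyses the slowest step in making dopamine, stood at 954 CPM (read counts scaled to a common library size) per kb of exon in MPTP and 1121 CPM per kb in saline. The library saline 3 stood apart from the other saline libraries. Its 18 dopaminergic markers summed to 9004 CPM, against 13793 to 14854 CPM in saline 1, 2 and 4, and 10022 to 11920 CPM in MPTP. Results are therefore given with all 8 libraries and without saline 3.

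Myelin RNA was present in every library, at a level well below the dopaminergic genes. The 37 genes took 0.194%, 0.189%, 0.196% and 0.163% of all counts in MPTP 1 to 4, and 0.134%, 0.114%, 0.254% and 0.137% in saline 1 to 4. The 4 MPTP libraries lay close together, saline 1, 2 and 4 lay below all of them, and saline 3 lay above all of them. The share averaged 0.186% ± 0.0153 over the 4 MPTP libraries and 0.160% ± 0.0638 over the 4 saline libraries (SD), and 0.128% ± 0.0125 in saline without saline 3 (SD, n = 3). The SD of the saline group with saline 3 was larger than the difference of the means, 0.026 percentage points. Every gene was detected in every library, the lowest count being 90.

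On the scale of CPM per kb of exon, the level of Cryab, a small heat shock chaperone, was the highest of the 37 (47.3 in MPTP and 38.7 in saline). Next came Cnp, a phosphodiesterase of the cytoplasmic myelin channels (43.6 and 38.5), and Car2, a carbonic anhydrase (36.96 and 36.5). Mbp, which binds the cytoplasmic faces of compact myelin together, was at 34.9 in MPTP and 31.0 in saline. The lineage factors were lower: Olig1 was at 18.1 and 15.3 CPM per kb, Sox10 at 5.47 and 4.75, Olig2 at 3.98 and 3.41, and Myrf at 3.91 and 3.40, MPTP first. Adamts4, a matrix metalloprotease, was lowest at 1.17 and 0.965. Of the 36 pairs of neighbours in this order, 30 differed in MPTP by less than the larger SD of the pair.

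**Figure D1:**
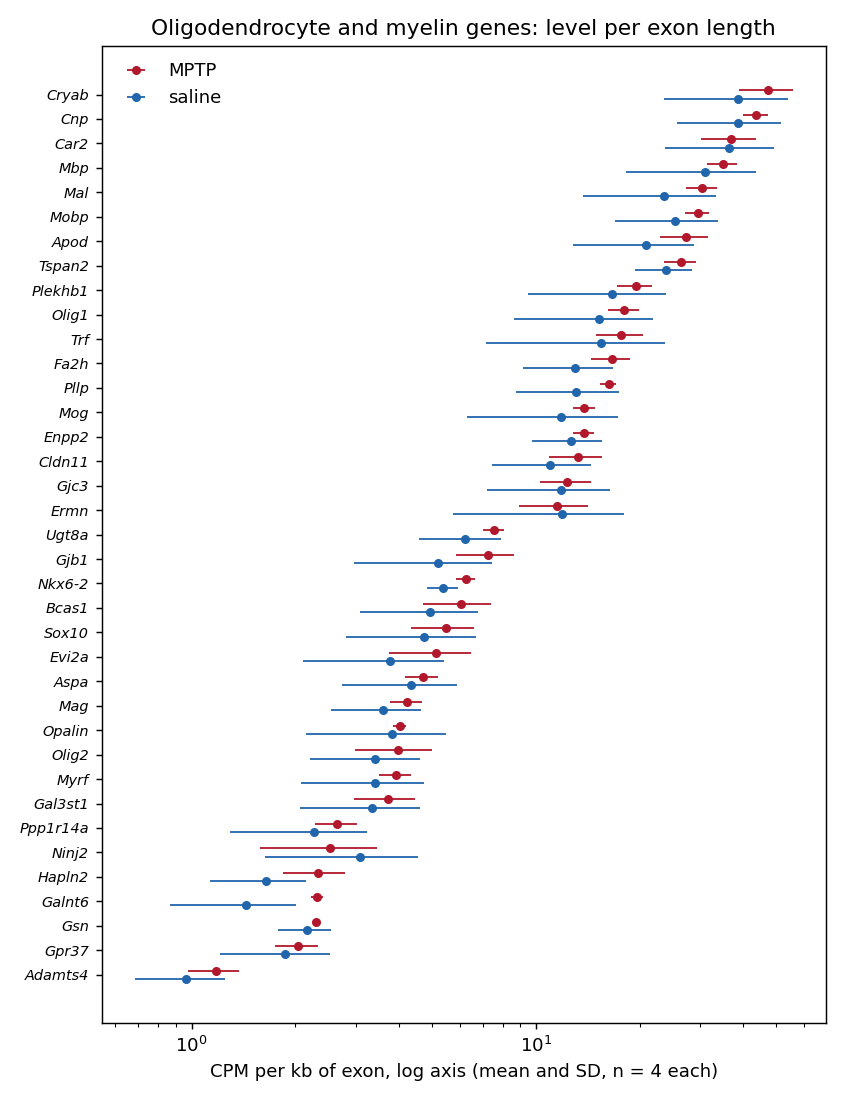
Mean level of each of the 37 genes in CPM per kb of exon (log axis), with MPTP above saline in each row and bars giving the SD over 4 libraries. Levels run from 47.3 (Cryab) to 1.17 (Adamts4) CPM per kb in MPTP, and the saline bars are wider because saline 3 lies high.

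The 37 genes moved together from library to library. Each gene's log2 CPM was set against its own mean over the 8 libraries, and the median of these deviations over the 37 genes was 0.16, 0.22, 0.17 and 0.02 in MPTP 1 to 4. In saline 1 to 4 it was -0.28, -0.55, 0.53 and -0.28. Saline 3 was the highest of all 8 libraries for 28 of the 37 genes, as it was for 13.9% of the 15999 genes tested. It was above every other saline library for 36 (28.6% of all genes), the exception being Gsn. Saline 2 was the lowest for 25, saline 1 for 7 and saline 4 for 5, so no gene was lowest in an MPTP library. The SD over the 8 libraries had a median of 0.39 on the log2 scale. Taken around the median deviation of each library it was 0.19, and it was smaller for 34 of the 37 genes.

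**Figure D2:**
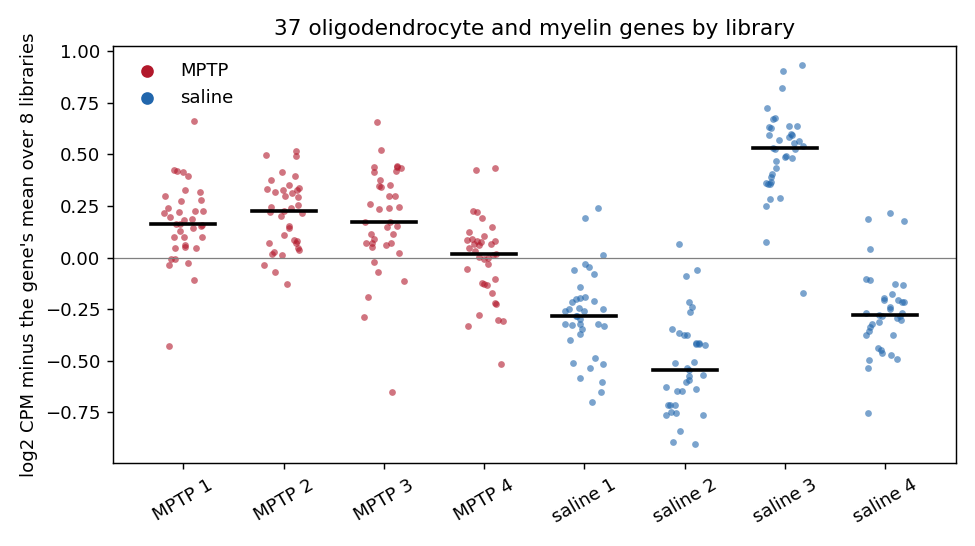
Each point is a gene, plotted as its log2 CPM minus its mean over the 8 libraries, and the black bar is the median over the 37 genes. The medians of the MPTP libraries lie between 0.02 and 0.22, those of saline 1, 2 and 4 between -0.55 and -0.28, and that of saline 3 at 0.53.

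With all 8 libraries, no oligodendrocyte or myelin gene passed the test between MPTP and saline. The edgeR quasi-likelihood test called 0 of the 37 genes at an adjusted p of 0.05, beside a background of 0.075% of the tested genes called higher and 0.0313% called lower. DESeq2 called 0 as well (0.148% of all genes were called higher and 0.184% lower). An unadjusted p under 0.05 was given to 4 of the 37 by DESeq2, where 1727 of all 19628 genes had one. By edgeR it was given to 2 (Galnt6 and Fa2h). There 8.78% of all genes had one, and 4.28% had one with a higher level in MPTP. The log2 fold change (MPTP over saline) was above 0 for 35 of the 37, against 50.1% of all genes. Its median over the 37 was 0.22, against 0.00 over all genes. No gene had all 4 MPTP libraries above all 4 saline libraries, a pattern that 2.04% of all genes showed.

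Saline 3 was above every other saline library for 36 of the 37 genes, so leaving it out lowers their saline mean. The upward shift of these genes without it was thus fixed in advance. Calls without saline 3 show how far the result depends on that library and are not separate support. Over all genes the calls went from 17 to 297. Without saline 3, 12 of the 37 genes were called higher in MPTP and 0 lower, where 0.853% of the tested genes were called higher. These 12 were Mal, Galnt6, Trf, Mobp, Apod, Pllp, Fa2h, Olig1, Plekhb1, Mbp, Ugt8a and Gjb1. All 37 log2 fold changes were then above 0 (51.2% of all genes were), with a median of 0.49. Every MPTP library lay above saline 1, 2 and 4 for 24 of the 37 genes, as for 7.22% of all genes. Leaving out any other single library called 0 of the 37, and the median was lowest without saline 2 (0.09, with 30 genes above 0).

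**Figure D3:**
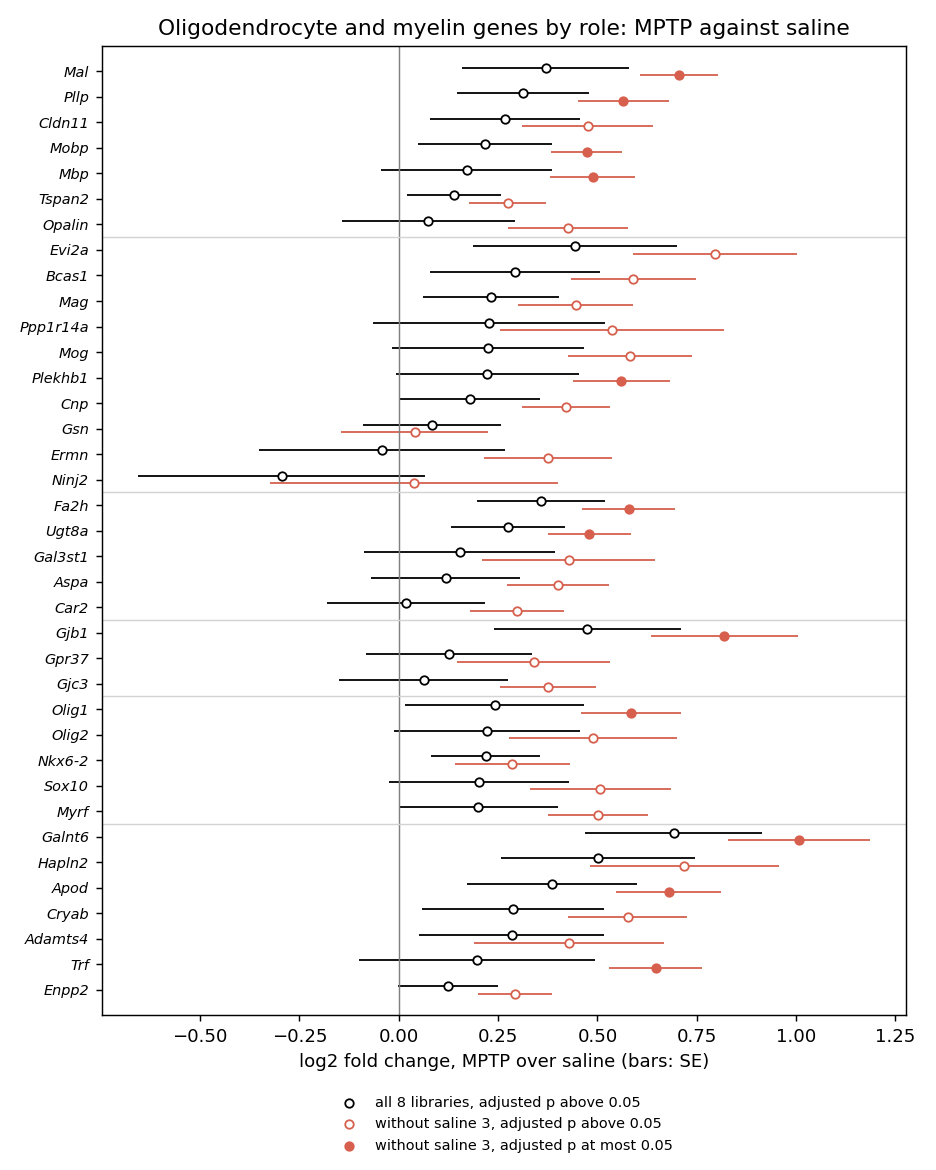
Log2 fold change of each gene, MPTP over saline, with its SE, for all 8 libraries (black) and without saline 3 (red). Blocks by role run from compact myelin and myelin membrane proteins at the top to secreted and stress proteins at the bottom. Filled points passed an adjusted p of 0.05. With all 8 libraries none did and the values ran from -0.29 (Ninj2) to 0.69 (Galnt6). Without saline 3 the 12 filled points ran from 0.47 (Mobp) to 1.01 (Galnt6).

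Among the proteins of compact myelin and the myelin membrane, all 7 genes had a log2 fold change above 0 with all 8 libraries (median 0.22). Without saline 3 the median was 0.48 and 4 passed. Mbp was at 290, 332, 299 and 260 CPM in MPTP 1 to 4, against 237, 172, 418 and 222 CPM in saline 1 to 4. The groups overlapped through saline 3 alone, and the log2 fold change was 0.17 (SE 0.22, adjusted p = 0.860). Without saline 3, Mbp rose by 0.49 (SE 0.11, adjusted p = 0.0311, edgeR). Mobp, a second small basic protein of compact myelin, was at 223, 186, 207 and 193 CPM in MPTP, against 139, 137, 258 and 161 CPM in saline. Its log2 fold change was 0.22 (adjusted p = 0.747), and 0.47 without saline 3 (adjusted p = 0.0174).

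Mal, a raft-associated proteolipid that sorts myelin membrane, had the smallest p of the 37 without saline 3. It was at 80.1, 80.2, 97.3 and 79.8 CPM in MPTP, against 48.1, 53.97, 106 and 53.1 CPM in saline. Saline 3 exceeded each MPTP library, and the other saline libraries were all under 55 CPM. The log2 fold change was 0.37 with all 8 libraries (SE 0.21, adjusted p = 0.645) and 0.71 without saline 3 (SE 0.10, adjusted p = 0.00141). Pllp, plasmolipin, belongs to the same protein family. It was at 33.3, 36.6, 33.1 and 32.5 CPM in MPTP, against 25.9, 19.8, 40.4 and 23.0 CPM in saline (log2 fold change 0.31, adjusted p = 0.610). Without saline 3 it rose by 0.57 (adjusted p = 0.0237).

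Cldn11 forms the tight junctions between myelin layers. It was at 21.5, 31.0, 23.1 and 23.3 CPM in MPTP, against 22.2, 13.4, 28.8 and 17.8 CPM in saline. MPTP 1 lay below saline 1 as well as saline 3, and the gene passed neither with saline 3 (adjusted p = 0.716) nor without it (0.48, adjusted p = 0.155). The tetraspanin gene Tspan2 and the paranodal loop protein gene Opalin had log2 fold changes of 0.14 and 0.07, and 0.27 and 0.43 without saline 3, and did not pass.

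Of the 10 genes for periaxonal, outer surface and cytoplasmic proteins, 8 had a log2 fold change above 0 (median 0.22). Mag, an adhesion molecule facing the axon, was at 17.5, 19.6, 15.4 and 16.3 CPM in MPTP, against 14.7, 12.1, 20.6 and 11.01 CPM in saline. Mog, on the outermost myelin layer, was at 21.9, 22.5, 25.7 and 23.9 CPM in MPTP, against 17.995, 11.2, 33.4 and 18.01 CPM in saline. Cnp was at 170, 171, 151 and 143 CPM in MPTP, against 128, 94.4, 205 and 134 CPM in saline. In each of these genes the MPTP libraries lay between saline 3 and the other saline libraries, without overlap on either side. Their log2 fold changes were 0.23, 0.22 and 0.18, and without saline 3 0.45 (adjusted p = 0.126), 0.58 (adjusted p = 0.0662) and 0.42 (adjusted p = 0.0618), so none passed by edgeR in either case.

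Both genes with a log2 fold change below 0 belong here. Ermn, a cytoskeletal protein of late oligodendrocytes, was at 37.5, 42.8, 54.9 and 32.7 CPM in MPTP, against 38.8, 25.8, 75.6 and 32.6 CPM in saline. Ninj2, an adhesion protein, was at 1.80, 3.503, 1.54 and 2.60 CPM in MPTP, against 2.78, 1.35, 4.68 and 2.78 CPM in saline. The libraries of the groups were interleaved in both genes, with saline 3 highest. The log2 fold changes were -0.04 (SE 0.31) and -0.29 (SE 0.36), and without saline 3 they were 0.37 (SE 0.16) and 0.04 (SE 0.36).

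Gsn, the actin-severing protein gelsolin, departed from the shared pattern. It was at 7.23, 7.32, 7.33 and 7.04 CPM in MPTP, against 8.26, 7.31, 6.19 and 5.52 CPM in saline. Saline 1 was highest and saline 3 was below every MPTP library, which was the case for no other of the 37 genes. The remaining genes of this group are Evi2a, a membrane protein gene, Bcas1, a marker of early myelinating cells, Plekhb1, a pleckstrin homology protein, and Ppp1r14a, an inhibitor of myosin phosphatase. Their log2 fold changes were 0.44, 0.29, 0.22 and 0.23 with all 8 libraries. Plekhb1 passed without saline 3 (0.56, adjusted p = 0.0311), while Evi2a (0.80), Bcas1 (0.59) and Ppp1r14a (0.54) did not (adjusted p = 0.0596, adjusted p = 0.0667 and adjusted p = 0.352).

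All 5 genes for enzymes of myelin lipids and metabolites had a log2 fold change above 0 (median 0.15), and saline 3 was above the other saline libraries in each. Ugt8a, which makes galactosylceramide, was at 35.9, 36.4, 33.3 and 31.4 CPM in MPTP, against 25.2, 23.0, 39.5 and 25.5 CPM in saline. Fa2h, which hydroxylates the fatty acids of these lipids, was at 43.2, 54.7, 56.4 and 45.9 CPM in MPTP, against 34.7, 29.2, 55.6 and 36.7 CPM in saline. Both lay above saline 1, 2 and 4 in all MPTP libraries, and MPTP 3 exceeded saline 3 in Fa2h. The log2 fold changes were 0.28 (SE 0.14, adjusted p = 0.606) for Ugt8a and 0.36 (SE 0.16, adjusted p = 0.537) for Fa2h. Without saline 3 they were 0.48 (adjusted p = 0.0311) and 0.58 (adjusted p = 0.0241).

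Aspa, which splits N-acetylaspartate from axons, was at 28.9, 31.2, 27.9 and 23.8 CPM in MPTP, against 20.8, 18.4, 39.5 and 24.3 CPM in saline. MPTP 4 lay below saline 4, and the log2 fold change was 0.12 (adjusted p = 0.894), or 0.40 without saline 3 (adjusted p = 0.116). The sulfatide-making sulfotransferase gene Gal3st1 (0.15) and Car2 (0.02) did not pass, with 0.43 and 0.30 without saline 3.

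Gjb1 codes for a connexin of myelin gap junctions. It was at 13.5, 13.5, 8.85 and 13.7 CPM in MPTP, against 7.19, 5.98, 14.5 and 7.88 CPM in saline. MPTP 3 was low, yet above saline 1, 2 and 4, and the log2 fold change was 0.47 (SE 0.24, adjusted p = 0.594). Without saline 3, Gjb1 rose by 0.82 (SE 0.18, adjusted p = 0.0346). The other connexin gene, Gjc3, had a log2 fold change of 0.06, and the orphan receptor gene Gpr37 of 0.13. Without saline 3 these were 0.38 and 0.34 and did not pass (adjusted p = 0.120 and adjusted p = 0.399).

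The 5 transcription factor genes had log2 fold changes within a narrow range, 0.20 to 0.24. Olig1 was at 39.6, 44.3, 37.6 and 34.7 CPM in MPTP, against 28.2, 21.1, 53.9 and 28.8 CPM in saline. Olig2 was at 11.3, 11.2, 11.5 and 6.28 CPM in MPTP, against 8.15, 6.04, 13.0 and 7.32 CPM in saline. These lineage factors are neighbours on chromosome 16, and they differed in MPTP 4, where Olig2 but not Olig1 lay within the range of saline 1, 2 and 4. Sox10 was at 16.1, 15.8, 21.5 and 13.3 CPM in MPTP, against 14.7, 9.86, 22.8 and 10.6 CPM in saline. Myrf was at 34.9, 37.9, 30.9 and 30.3 CPM in MPTP, against 25.4, 19.5, 45.6 and 26.2 CPM in saline. The groups of Sox10 overlapped also through saline 1, while those of Myrf overlapped only through saline 3. Without saline 3, Olig1 rose by 0.59 (adjusted p = 0.0290), and Myrf (0.50, adjusted p = 0.0528), Sox10 (0.51, adjusted p = 0.159) and Olig2 (0.49, adjusted p = 0.252) did not pass. Nkx6-2, a homeobox gene of the lineage, varied least of the 37, with 11.2 to 13.0 CPM in MPTP and 9.23 to 11.7 CPM in saline (0.22, and 0.29 without saline 3).

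Secreted, matrix and glycosylation genes had the highest median, 0.29 with all 8 libraries and 0.65 without saline 3. Galnt6, an enzyme that starts mucin-type O-glycans, was at 8.60, 8.71, 9.34 and 9.24 CPM in MPTP, against 4.37, 4.08, 8.81 and 4.95 CPM in saline. The MPTP libraries were tightly grouped, and saline 3 fell among them, above MPTP 1 and MPTP 2. Its log2 fold change of 0.69 (SE 0.22, adjusted p = 0.415) was the largest of the 37. Without saline 3, Galnt6 rose 2.01-fold, or 1.01 on the log2 scale (SE 0.18, adjusted p = 0.0124).

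Trf, the iron carrier transferrin, was at 59.4, 57.8, 69.998 and 47.8 CPM in MPTP, against 36.6, 35.8, 92.4 and 40.3 CPM in saline. Saline 3 was 2.46 times the mean of saline 1, 2 and 4, the largest such ratio of the 37 genes. Apod, a lipid-binding lipocalin, was at 70.3, 83.9, 56.8 and 69.7 CPM in MPTP, against 49.0, 35.0, 83.2 and 47.6 CPM in saline. Hapln2, a link protein of the matrix at nodes of Ranvier, was at 7.16, 5.26, 4.74 and 4.86 CPM in MPTP, against 3.55, 3.81, 5.53 and 2.66 CPM in saline. All 3 lay above saline 1, 2 and 4 in every MPTP library. The log2 fold changes were 0.20, 0.39 and 0.50, and without saline 3 Trf (0.65, adjusted p = 0.0135) and Apod (0.68, adjusted p = 0.0214) rose while Hapln2 (0.72, adjusted p = 0.132) did not pass. The chaperone gene Cryab (0.29), the metalloprotease gene Adamts4 (0.28) and Enpp2, the lysophospholipase autotaxin (0.12), passed in neither case.

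**Figure D4:**
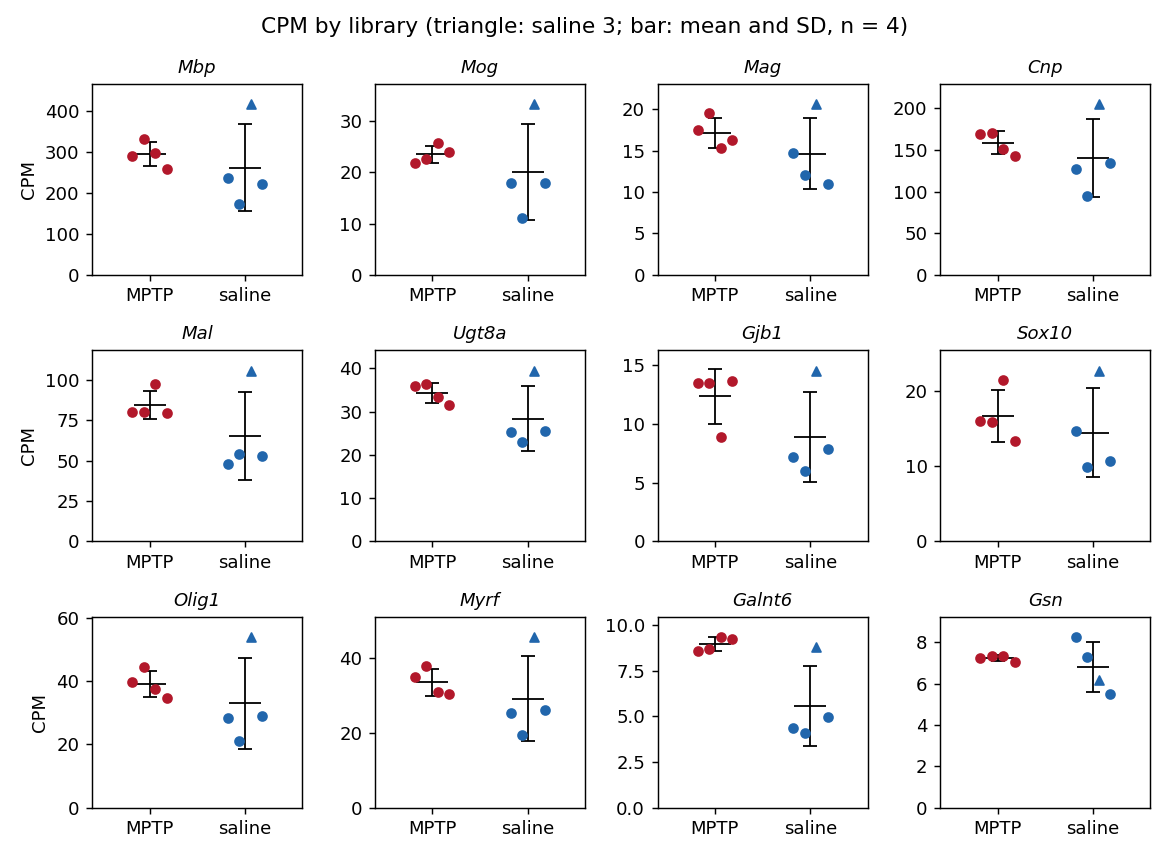
CPM of 12 genes in each library, MPTP left and saline right, with the mean and SD (n = 4) as bars and saline 3 as a triangle. In all panels but Galnt6 and Gsn the triangle lies above every MPTP point. In Gsn it lies below them, at 6.19 CPM.

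Of the 37 genes, 14 share exon bases with another gene in GENCODE vM21 on GRCm38. The reads do not mark strand, so such reads cannot be told apart. The overlap is largest for Trf (chromosome 9, 103204001 to 103230444, minus strand), 63.5% of whose exon bases lie in another gene model on the same strand. It is 54.2% for Pllp (chromosome 8, 94674894 to 94696278, minus strand), from an antisense gene, and 11.4% for Galnt6 (chromosome 15, 100691813 to 100729376, minus strand), also antisense. The exons of Mal (chromosome 2, 127633226 to 127656695, minus strand), Mog (chromosome 17, 37010743 to 37023398, minus strand) and Gjb1 (chromosome X, 101376378 to 101385629, plus strand) overlap no other gene.

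Other genes of the lineage and its pathways were taken from lists that hold none of the 37. The counts given for these lists and for the cell type markers are by edgeR, which gave 0 to 3 genes a list an unadjusted p under 0.05 with all 8 libraries. Of 34 further mature oligodendrocyte genes, 0 passed with all 8 libraries and 25 had a log2 fold change above 0 (median 0.14). Without saline 3, 3 rose, namely Sec14l5 (1.68, adjusted p = 0.0251), a lipid transfer protein gene, Tmem63a (0.78, adjusted p = 0.0230), an ion channel gene, and Phldb1. With all 8 libraries Sec14l5 had 0.90, Tmem63a 0.44 and the kinase gene Aatk 0.17. Of 13 genes of newly formed oligodendrocytes 0 passed in either case (median 0.08, and 0.34 without saline 3). Casr, the calcium-sensing receptor, had the smallest p (0.59, adjusted p = 0.415), followed by Tmem2 (0.32) and Rras2 (-0.33). Of 16 precursor genes 0 passed with all 8 libraries (median 0.16). The proteoglycan gene Cspg4 (0.65, adjusted p = 0.508) came first there, before Pcdh15 (-0.18) and Cacng4 (0.28), and Sox8 alone rose without saline 3 (median 0.33). Saline 3 was the highest library in the mean log2 CPM of the further mature, newly formed and precursor lists. Their upward shift without it was thus fixed in advance, and 0.853% of all genes were called higher then.

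Saline 3 did not stand out in the lipid pathway genes. The 22 other genes of sphingolipid and galactolipid metabolism had a mean log2 CPM of 4.99 to 5.16 in MPTP, against 4.95 to 5.00 in saline, and saline 3 (4.98) lay within the range of the other saline libraries. None passed with all 8 libraries (17 above 0, median 0.09). Psap, the saposin precursor (0.22, adjusted p = 0.492), Sptssa, a subunit of serine palmitoyltransferase (-0.36, adjusted p = 0.519), and Galc, which degrades galactosylceramide (0.32, adjusted p = 0.528), had the smallest p. Without saline 3 only Gltp, a glycolipid transfer protein gene, passed (0.49, adjusted p = 0.0302).

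Of 13 genes known from oligodendrocytes in disease, 0 passed with all 8 libraries and 10 lay above 0 (median 0.31). In the fit limited to genes with a mean CPM of at least 5, 8 of them remained, with 5 above 0 and a median of 0.055. The summed level of the 13 genes was not higher in MPTP, at 1002 ± 59.0 CPM against 1044 ± 96.7 CPM in saline (SD). H2-D1, a class I histocompatibility gene, was at 17.2, 16.1, 16.5 and 15.7 CPM in MPTP, against 11.7, 9.89, 14.003 and 9.68 CPM in saline. Every MPTP library lay above every saline library, saline 3 included. Its log2 fold change was 0.53 (SE 0.14, adjusted p = 0.321), and 0.65 without saline 3 (adjusted p = 0.0263, edgeR). The kinase gene Sgk1 (0.31) did not pass.

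Schwann cells make the myelin of peripheral nerves, and of the genes listed for them Pmp2 and Egr2 were too low to be tested. None of the 6 tested genes of that list passed with all 8 libraries. Gldn (-0.43, adjusted p = 0.472), Drp2 (-0.22, adjusted p = 0.519) and Pmp22 (0.26, adjusted p = 0.702) had the smallest p, and Gldn and Drp2 fell without saline 3 (adjusted p = 0.0391 and adjusted p = 0.0494), where 0.983% of all genes were called lower. Of 13 tested genes for nodes and paranodes of the axon, 0 passed in either case (median -0.02, and 0.04 without saline 3). Kcnq3 (-0.16), Cntn2 (0.20) and Nrcam (-0.10) had the smallest p there.

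Astrocyte markers moved with the myelin genes. A fit that held them together with the microglia and endothelial markers is given below, and no cause was tested. The mean log2 CPM of 20 astrocyte markers was 4.38, 4.63, 4.46 and 4.36 in MPTP 1 to 4, against 4.11, 3.83, 4.77 and 4.04 in saline 1 to 4. That of the 37 genes was 4.78, 4.82, 4.79 and 4.60 in MPTP, against 4.32, 4.09, 5.11 and 4.34 in saline. Both were highest in saline 3 and lowest in saline 2. The astrocyte markers summed to 1391 to 1547 CPM in MPTP, against 1140 to 1707 CPM in saline. Of these 20 markers, 18 had a log2 fold change above 0 and 0 passed with all 8 libraries. Without saline 3, 4 were called higher (Clu, Mlc1, Gfap and S100b), where 0.853% of all genes were. As saline 3 was the highest library of this list, its upward shift without saline 3 was also fixed in advance. Clu (0.38, adjusted p = 0.321), Slc1a3 (0.46) and Mlc1 (0.67) had the smallest p.

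The 18 microglia and macrophage markers summed to 70.4 to 81.0 CPM in MPTP, against 57.5 to 74.2 CPM in saline, and 12 lay above 0 with 0 passing by edgeR, while DESeq2 called 1 of them, Cd68, higher (adjusted p = 0.000657). Their mean log2 CPM was 0.84, 1.08, 0.84 and 0.57 in MPTP 1 to 4, against 0.40, -0.0016, 0.95 and 0.30 in saline 1 to 4, with MPTP 2 highest. Cd68 (2.04, adjusted p = 0.169), C1qc (1.05, adjusted p = 0.487) and Tyrobp (0.60, adjusted p = 0.547) came first. Cd68 and C1qc were called higher without saline 3, where 0.853% of all genes were. These named genes were all higher in MPTP and had a mean under 5 CPM. The 2 microglia markers with a mean CPM of at least 5 both lay below 0 (-0.079 and -0.062, in the fit limited to such genes). The 17 endothelial and mural markers summed to 22.7 to 36.3 CPM in MPTP, against 19.6 to 40.8 CPM in saline, with 8 above 0 and none passing in either case. As in the myelin genes, saline 3 was the highest library, with a mean log2 CPM of 0.93. The order of the other libraries was not that of the myelin genes. Saline 4 had the lowest mean log2 CPM (-0.025), and saline 1 had a higher one (0.68) than MPTP 3 (0.16) or MPTP 4 (0.25). Ly6c1 (1.17, adjusted p = 0.471), Slco1a4 (-0.70) and Pdgfrb (0.64) had the smallest p. No marker of these lists was at 0 in every library.

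Dopaminergic markers ran the other way. Their mean log2 CPM was 7.64, 7.74, 7.71 and 7.90 in MPTP 1 to 4, against 8.00, 8.07, 7.46 and 8.01 in saline 1 to 4. Saline 3, the highest library in the myelin genes, was the lowest here, and saline 2, the lowest in the myelin genes, was the highest. Of these 18 genes 15 had a log2 fold change below 0, and none passed with all 8 libraries (Ddc -0.54, Aldh1a1 -0.44 and Sncg -0.23 had the smallest p). Th was at 2110, 2208, 1992 and 2708 CPM in MPTP, against 3023, 2744, 1847 and 2988 CPM in saline (log2 fold change -0.23, adjusted p = 0.660). The dopamine transporter gene Slc6a3 was at 2598, 3033, 2799 and 3209 CPM in MPTP, against 3616, 3777, 2505 and 3772 CPM in saline (-0.23, adjusted p = 0.618). Saline 3 was set apart by the low level of these same markers, so their downward shift without it was fixed in advance and is not separate support. Without saline 3, Ddc, Aldh1a1 and Slc6a3 were called lower by edgeR, where 0.983% of all genes were. Th did not pass (-0.37, adjusted p = 0.0639).

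**Figure D5:**
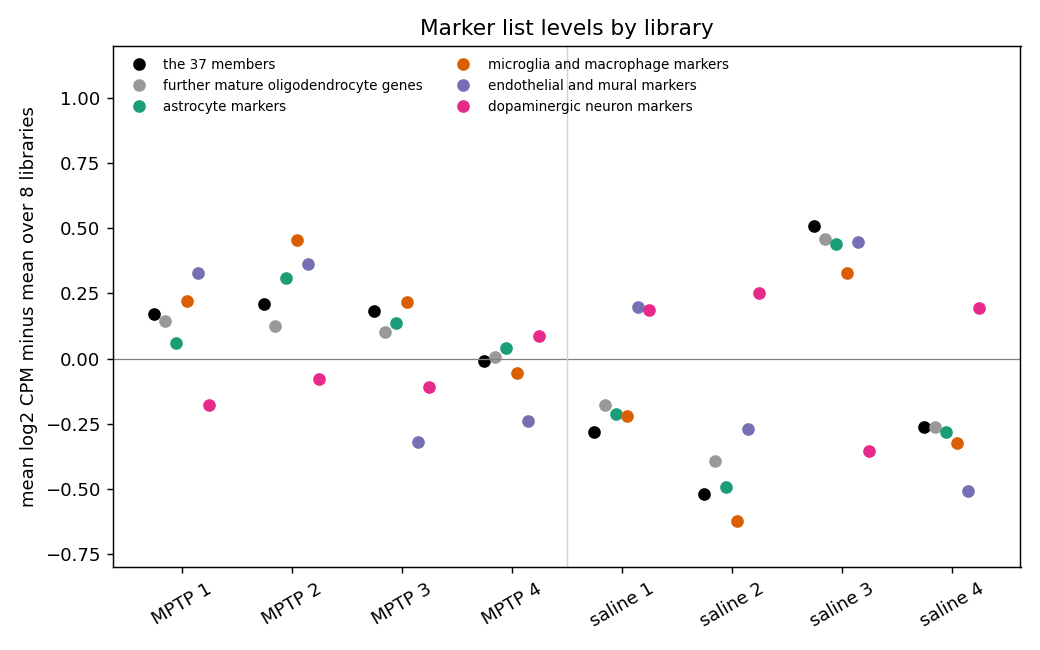
Mean log2 CPM of 6 gene lists in each library, as the difference from the list's mean over the 8 libraries. The 37 genes, the further oligodendrocyte genes and the astrocyte markers lie highest in saline 3 and lowest in saline 2, and the dopaminergic markers lie lowest in saline 3 and highest in saline 2.

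Fits that held a marker score beside the treatment gave smaller values. The further oligodendrocyte and astrocyte scores were highest in saline 3 and lowest in saline 2, as were the 37 genes. Holding such scores takes up the same variation between libraries, so smaller values were largely fixed in advance. No cause was tested by these fits. Of the 18 microglia and 17 endothelial markers, 2 and 0 had a mean CPM of at least 5. With the mean score of the astrocyte, microglia and endothelial lists as a covariate, the median log2 fold change of the 37 genes was 0.04, with 22 above 0 and 0 called by edgeR (0.075% of all genes were called higher and 0.025% lower). With the score of the 34 further oligodendrocyte genes it was 0.05, with 28 above 0 and 0 called (0.075% of all genes higher and 0.0375% lower). Galnt6 had the largest value under both, 0.54 (adjusted p = 0.633) and 0.53 (adjusted p = 0.565).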

How the data were processed

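The deposited values are whole, unnormalised read counts per gene, which the authors gave in 1 table for the 8 libraries. TopHat2 2.0.8 and the mm10 build are named, per the submitters' processing notes; how reads were counted, and whether by strand, was not stated. Per the labels' protocols, a few nanograms of RNA were amplified as cDNA by a kit that does not mark strand and read as 100 bp single ends, 2 libraries to a run. Which libraries shared a run is not given, so no fit held it. Columns were matched to samples by title. No library pair within a group agreed within sampling noise.

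Counts were tested with edgeR 4.0.16 (R 4.3.3): TMM scaling, filterByExpr (15999 genes kept, all 37 members among them), robust quasi-likelihood F-test, MPTP over saline, Benjamini-Hochberg adjustment across the whole table, threshold 0.05. SE is the log2 fold change over the square root of F. CPM use TMM-scaled library sizes, and log2 CPM a prior count of 2. Exon lengths and positions are from GENCODE vM21, of the same build, whose gene models may differ from those counted. The test was tested on simulated data. Alternatives used DESeq2 1.42.0 and limma 3.58.1 (voom).

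The members, the gene lists, the tests and the rule for named genes were chosen with earlier results of these data known. The rule gives values in every library for 14 set members, the 6 with the smallest p, those below 0, the leading 6 of those passing when a library was left out, and from other lists up to 3 genes with the smallest p. Single values of some list genes are not reported here. Tspan2, Opalin, Gsn and the other members were named beside them, and Phldb1, Sox8, Gltp, Gfap and S100b were named after their values were seen.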

Additional observations from a re-analysis of the deposited data

Results flagged for a closer look

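In each group of 4 libraries, the gap of the highest or lowest value to its nearest neighbour was divided by the group's whole range, and values past Dixon's 95% critical value are given here. Of the 78 groups examined 12 were past it, where chance flags about 1 in 20 of independent groups. The 37 genes moved together from library to library, so the flags are not independent and their number cannot be read against that rate. Saline 3 accounted for 8 of the 12 flags, all high. The share of counts in the 37 genes was 0.254% in saline 3, against 0.114% to 0.137% in the other saline libraries. Mal was at 106 CPM there (48.1 to 53.97 in the others), Opalin at 18.5 (7.70 to 9.42), Bcas1 at 29.0 (14.6 to 15.4) and Ugt8a at 39.5 (23.0 to 25.5). Car2 was at 135 CPM (68.9 to 75.2), Gjc3 at 81.6 (38.3 to 43.1) and Trf at 92.4 (35.8 to 40.3). In the MPTP group, Mal was high in MPTP 3, at 97.3 CPM (79.8 to 80.2 in the others), and Gjb1 was low there, at 8.85 CPM (13.5 to 13.7). Plekhb1 was low in MPTP 4, at 59.5 CPM (75.8 to 77.5), as was Olig2, at 6.28 CPM (11.2 to 11.5).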

How the results depend on the processing

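The count of all genes called was 17, and it was 11 with a mean CPM of at least 5, 56 by DESeq2, and 8 (without MPTP 4) to 297 (without saline 3) when a library was left out, with 10 without saline 1. The count of the 37 genes called was 0 in each alternative except without saline 3, so leaving out a library gave 0 to 12. Genes above 0 numbered 22 when the non-neuronal score was held in the fit, and 28 to 37 in the other alternatives. The median log2 fold change stayed above 0 in all 17 alternative fits, between 0.04 (non-neuronal score) and 0.49 (without saline 3). Scaling by DESeq2 size factors or upper quartile gave 0.22 and 0.23, and voom 0.35.

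Of 626 single-gene values under the alternatives, 574 kept their direction and their side of the threshold, 12 passed it without saline 3, and 40, from 17 of the 37 genes, changed sign. The cause was not tested. With the non-neuronal score the log2 fold changes that turned were Mbp -0.053, Opalin -0.093, Cnp -0.020, Plekhb1 -0.0026, Ppp1r14a -0.0080, Gal3st1 -0.00078, Aspa -0.091, Car2 -0.15, Gjc3 -0.12, Olig2 -0.035, Myrf -0.024, Trf -0.0090 and Enpp2 -0.011. With the further oligodendrocyte score they were Mbp -0.020, Opalin -0.094, Aspa -0.060, Car2 -0.15, Gjc3 -0.12, Gpr37 -0.020 and Trf -0.0075. Ermn was at 0.16 by voom. With a library left out, values ran from -0.065 to 0.43 for Opalin, -0.22 to 0.37 for Ermn, -0.0019 to 0.19 for Gsn, -0.55 to 0.039 for Ninj2, -0.012 to 0.40 for Aspa, -0.094 to 0.30 for Car2, -0.055 to 0.38 for Gjc3 and -0.0079 to 0.34 for Gpr37.

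Libraries of the groups share replicate numbers. Deviations of same-numbered libraries from their group means correlated at -0.0241, -0.116, -0.0282 and 0.0388, so the numbers were not taken as pairs. A fit with the replicate number as a block called 14 genes in all and 0 of the 37, with a median of 0.27, 36 above 0, and Ermn at 0.053. No MPTP library correlated best with the saline library of its own number.

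The lowest count of the 37 genes in any library was 90. Precision is limited by the 4 libraries a group, of which saline 3 stands apart.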
